A study of Homo sapiens with 8 samples.

Results

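Desmosomes were examined through 10 genes, *DSP*, *DSG2*, *DSG3*, *DSC2*, *DSC3*, *JUP*, *PKP2*, *PKP3*, *PPL* and *PERP*, chosen by name and found by their NCBI gene numbers among the 25702 genes listed for each library. RNA-seq was performed on SUIT2, an established human PDA (pancreatic ductal adenocarcinoma) cell line, in 8 libraries. Of these, 4 came from cells given a scramble shRNA (shScr), 2 from cells given the first *EN1* shRNA construct (shEN1 #1) and 2 from cells given the second (shEN1 #2). *EN1* encodes a homeobox transcription factor, and the comparison of shEN1 with shScr asks which genes change when it is depleted. All groups share the parental line and a virally delivered shRNA, and the sources used here do not say whether replicates of a group came from separate infections or cultures, so the p-values measure only the spread between these libraries.

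Desmosomes are the junctions that rivet epithelial cells together and tie their keratin filaments to the membrane. Desmogleins and desmocollins are the cadherins that meet between neighbouring cells. Plakoglobin (*JUP*) and the plakophilins bind the cadherin tails in the plaque, and desmoplakin (*DSP*) links that plaque to keratin. Periplakin (*PPL*) is a plakin of the same family as desmoplakin, and *PERP* is a membrane protein of desmosomes that p53 and p63 can induce. Simple epithelia such as pancreatic ducts use mainly *DSG2*, *DSC2*, *PKP2* and *DSP*, whereas *DSG3*, *DSC3* and *PKP1* belong to stratified squamous epithelia.

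*EN1* did not follow the labels in these counts, so each library is named by its label. The authors describe *EN1* as depleted by 2 shRNA constructs in SUIT2 and measured its RNA there by quantitative PCR. Those values were not compared here. *EN1* was measured at 4.10, 4.50, 4.94 and 2.51 CPM (counts per 1e6 counts after TMM scaling) in the libraries labelled shScr replicates 1 to 4. It was at 5.77 and 5.41 CPM in those labelled shEN1 #1 replicates 1 and 2, and at 1.35 and 6.70 CPM in those labelled shEN1 #2 replicates 1 and 2. *EN1* was thus lowest in a shEN1 #2 library, while the other 3 shEN1 libraries lay above every shScr library, and the log2 fold change of shEN1 against shScr was 0.26 (SE 0.43, adjusted p = 1 by edgeR's quasi-likelihood test). The libraries held 33423590 to 37810604 counts each. All 6 epithelial markers were present, with a summed level of 11700 to 15900 CPM in the shScr and 11400 to 18500 CPM in the shEN1 libraries. The 5 fibroblast markers summed to at most 4.22 CPM with *COL3A1*, *DCN* and *LUM* at 0, and the 4 leukocyte markers to 8.28 to 35.6 CPM, nearly all of it *CD68*, with *PTPRC* and *CD3E* at 0. The endothelial, acinar and endocrine markers summed to at most 0.676, 1.41 and 0.216 CPM.

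Promoter sequence was available from RefSeq for 7 of the 10 genes in 9 windows, and each 250-base window matched GRCh37 (the same build as hg19) at 1 place. *PKP2*, *PKP3* and *PPL* had no entry. The windows of *DSG2*, *PERP* and *DSG3* lay wholly before the annotated start of their gene and are shown because they belong to a desmosomal cadherin that was expressed, to the gene whose order of libraries differed most from the others, and to a cadherin with no reads. *DSG2* occupies chr18:29078140-29128971 on the forward strand, *PERP* chr6:138409642-138428556 on the reverse strand and *DSG3* chr18:29027704-29058665 on the forward strand. The other genes lie at chr6:7541571-7586947 (*DSP*), chr18:28638806-28682485 (*DSC2*), chr18:28569331-28622781 (*DSC3*), chr17:39910856-39943183 (*JUP*), chr12:32943679-33049732 (*PKP2*), chr11:392614-404908 (*PKP3*) and chr16:4932508-5010742 (*PPL*). Capitals mark matches to CACCTG (an E-box read by ZEB and SNAIL repressors), TGANTCA (AP-1) or GGGCGG (the GC box), searched on both strands.
*DSG2* (chr18:29077890-29078139): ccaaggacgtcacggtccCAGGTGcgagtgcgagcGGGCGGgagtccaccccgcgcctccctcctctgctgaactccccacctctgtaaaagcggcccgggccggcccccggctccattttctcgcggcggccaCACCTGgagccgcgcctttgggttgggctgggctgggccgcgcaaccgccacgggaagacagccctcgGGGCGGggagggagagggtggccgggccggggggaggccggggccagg
*PERP* (chr6:138428557-138428806): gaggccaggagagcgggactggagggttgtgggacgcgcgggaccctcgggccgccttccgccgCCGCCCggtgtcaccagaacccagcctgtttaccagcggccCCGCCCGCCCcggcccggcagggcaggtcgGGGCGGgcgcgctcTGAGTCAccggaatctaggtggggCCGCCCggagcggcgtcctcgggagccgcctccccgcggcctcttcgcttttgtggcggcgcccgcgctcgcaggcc
*DSG3* (chr18:29027454-29027703): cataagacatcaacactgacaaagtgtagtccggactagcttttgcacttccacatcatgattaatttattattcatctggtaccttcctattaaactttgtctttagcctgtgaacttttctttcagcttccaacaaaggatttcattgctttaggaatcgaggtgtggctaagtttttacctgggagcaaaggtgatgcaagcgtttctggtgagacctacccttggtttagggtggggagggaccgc

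The *DSG2* window held CACCTG at 2 places and GGGCGG at 2 places, and 75.2% of its bases were G or C. The *PERP* window held TGANTCA once, 101 to 95 bases before the start, and GGGCGG at 5 places, of which 2 overlapped each other, with 77.2% G or C. The *DSG3* window held none of the motifs and was 42.8% G or C, against a median of 58% over the 35116 windows of the table. Across the genes, CACCTG was found in 4 of the 9 windows (from *DSP*, *DSG2*, *DSC2* and *JUP*), and it is present in 17.5% of all windows. GGGCGG was found in 6 of the 9 windows, from 5 genes (42.6% of all windows). TGANTCA was found in 1 of the 9, that of *PERP* (6.57% of all windows). TAATTA, the homeodomain core, and AACCGGT, a Grainyhead motif, were in 0 of the 9 windows, and 4.35% and 0.626% of all windows held them. These matches describe letters only.

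The reads of the desmosomal cadherins came from the isoforms of simple epithelium. *DSG3* had 0 counts in all 8 libraries. A floor of 3 counts was taken for it, or 0.0762 to 0.0922 CPM depending on the library. For a count of 0, the upper end of the 95% Poisson interval is higher, at 3.689 counts. *DSC3* had 4 counts in all, 2 in shEN1 #1 replicate 2 and 2 in shEN1 #2 replicate 2. The other 8 genes were counted in every library, with 252 to 24180 counts each, and were the ones that passed the filter on low counts. Per length of merged exons, *DSG2* was at least 742-fold above *DSG3*, taking 3 counts per library as the floor for the missing isoform. In the 6 libraries without a *DSC3* count, *DSC2* was at least 51.7-fold above *DSC3* by the same floor. With 2 *DSC3* counts, the ratio of *DSC2* to *DSC3* was 111 (95% interval 30.4 to 916, exact binomial) in shEN1 #1 replicate 2 and 139 (38.2 to 1150) in shEN1 #2 replicate 2. These limits, like every interval on counts here, cover counting error only and treat counts as independent. Reads were paired-end, and the sources used here do not say whether both reads of a pair were counted. Every non-zero count of *DSC3* and *PKP1* was even, while the keratin *KRT5* had a count of 9 in shEN1 #2 replicate 2. If both reads were counted, the intervals are too narrow and the fold limits too high.

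On a per-length scale (RPKM, CPM per kilobase of merged exons), *PERP* was the most abundant with a mean of 136.6 over the 8 libraries and a range of 113 to 161. *PKP3*, a plakophilin found in most desmosomes, followed at 56.6 RPKM, then *JUP* at 26.6, *DSG2* at 16.4, *PPL* at 12.0, *PKP2* at 9.76 and *DSP* at 7.71 RPKM. *DSC2* was far lower at 0.781 RPKM (0.549 to 1.15). *PERP* lay above *PKP3*, *PKP3* above *JUP* and *DSP* above *DSC2* without any overlap of their ranges. The ranges of the neighbours from *JUP* down to *DSP* overlapped, although *JUP* was above *DSG2*, *DSG2* above *PPL* and *PKP2* above *DSP* within each of the 8 libraries. *PPL* was above *PKP2* in 6 of 8 libraries, and with the length of the canonical transcript in place of merged exons, a choice made after the values were seen, *PKP2* (23.8 RPKM) ranked above *PPL* (14.8 RPKM) in all 8. With that length the ranges of *PKP3* and *JUP* also overlapped. The annotation places antisense genes over exon bases of *DSG2* (186 bases) and *DSP* (81 bases) and same-strand non-coding genes over those of *DSC2* (554 bases) and *PKP2* (424 bases). None of these has its own row, and whether the counting used strand is not given in the sources used here, so their reads cannot be told apart from those of the genes named.

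**Figure D1:**
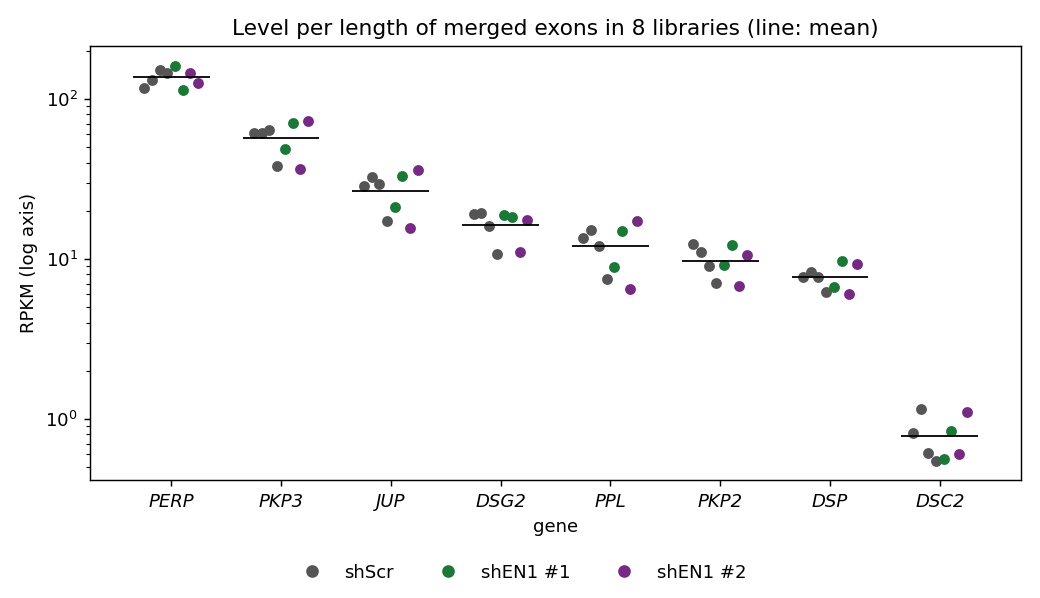
Level per length of the 8 desmosome genes with reads in every library. The y axis is RPKM on a log scale, each point is a library coloured by its label, and lines are means over 8 libraries; PERP sits at 113 to 161 RPKM, above all others, and DSC2 lies lowest, at 0.549 to 1.15 RPKM.

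Most of these genes shared an order of libraries that did not follow the labels. *DSP* was at 105, 113, 105 and 84.2 CPM in shScr replicates 1 to 4. It was at 91.4 and 133 CPM in shEN1 #1 replicates 1 and 2 and at 82.3 and 127 CPM in shEN1 #2 replicates 1 and 2. The lowest *DSP* levels were thus in shScr replicate 4 and shEN1 #2 replicate 1 and the highest in the second replicates of both constructs, and the arms overlapped. The mean was 102 CPM ± 12.4 (SD, n = 4) in shScr and 108 CPM ± 25.2 (SD, n = 4) in shEN1.

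The plaque genes *JUP* and *PPL* had the widest spread of the 8. *JUP*, which can also act in WNT signalling through its likeness to beta-catenin, was at 142, 160, 146 and 85.6 CPM in the shScr libraries. It was at 104 and 162 CPM in shEN1 #1 and at 76.8 and 177 CPM in shEN1 #2. Both ends of its range lay in the shEN1 #2 pair, with shScr replicate 4 next to the lowest. *PPL* was at 104, 117, 92.8 and 57.4 CPM in shScr, at 68.2 and 115 CPM in shEN1 #1 and at 49.8 and 133 CPM in shEN1 #2, so it had the same order as *JUP* at the low end and a 2.66-fold range. *PKP3* was at 233, 232, 242 and 144 CPM in shScr, at 184 and 268 CPM in shEN1 #1 and at 138 and 277 CPM in shEN1 #2. Within shScr, replicate 4 stood apart from the other 3 libraries. *PKP2*, the plakophilin of simple epithelia and heart, was at 127, 113, 92.3 and 72.6 CPM in shScr, at 94.4 and 125 CPM in shEN1 #1 and at 69.6 and 109 CPM in shEN1 #2, again lowest in shEN1 #2 replicate 1 and shScr replicate 4.

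The cadherins differed a little in their order. *DSG2* was at 182, 184, 151 and 101 CPM in shScr, at 180 and 175 CPM in shEN1 #1 and at 105 and 167 CPM in shEN1 #2. Only shScr replicate 4 and shEN1 #2 replicate 1 were low, and shEN1 #1 replicate 1, low for *JUP* and *PPL*, was among the higher libraries here. *DSC2* was at 10.2, 14.4, 7.61 and 6.86 CPM in shScr, at 7.06 and 10.6 CPM in shEN1 #1 and at 7.54 and 13.9 CPM in shEN1 #2. It was low in 4 libraries, both of the former among them, and highest in shScr replicate 2.

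*PERP* had nearly the opposite order. It was at 491, 548, 641 and 614 CPM in shScr, at 677 and 476 CPM in shEN1 #1 and at 613 and 528 CPM in shEN1 #2. The 3 libraries low in *DSP*, *JUP*, *PKP3* and *PPL* were thus among the 4 highest for *PERP*, and shEN1 #1 replicate 2, which was highest for *DSP*, was lowest for *PERP*. The CPM ratio of *PERP* to *DSP* was 4.66, 4.84, 6.13 and 7.29 in shScr, 7.41 and 3.58 in shEN1 #1 and 7.45 and 4.17 in shEN1 #2. Its range was the narrowest of the 8, at 1.42-fold between the highest and the lowest library.

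**Figure D2:**
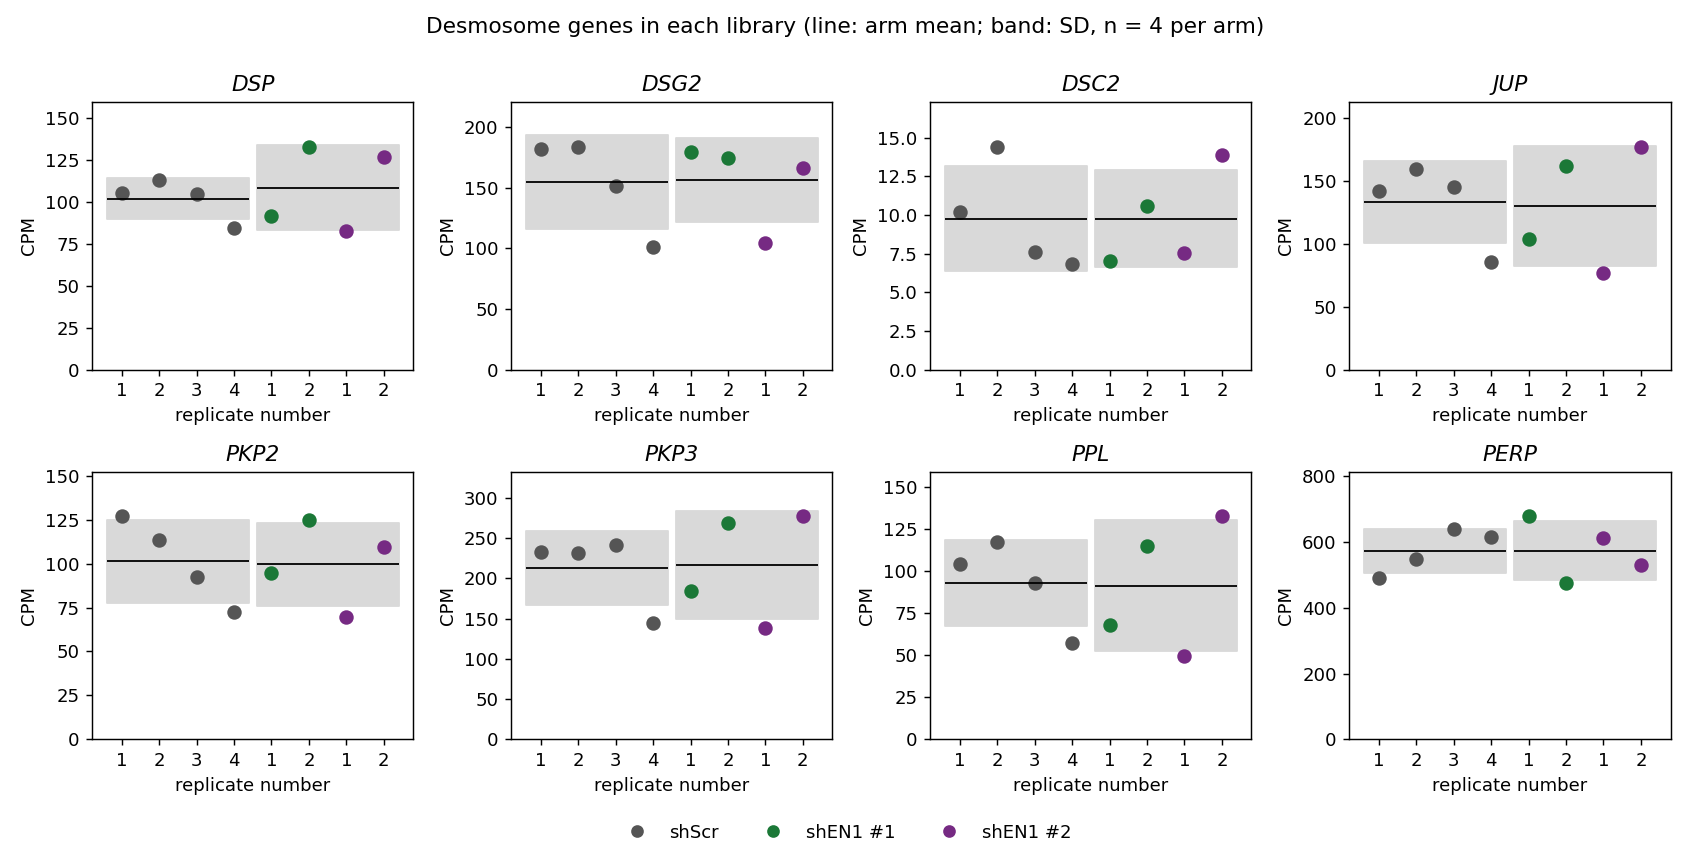
CPM of the 8 desmosome genes by library. The x axis gives the replicate number within each label and the y axis CPM from 0; lines are arm means and bands SD (n = 4 per arm), the points of shScr and shEN1 overlap in every panel, and shScr replicate 4 and shEN1 #2 replicate 1 hold the 2 lowest points for DSP, DSG2, JUP, PKP2, PKP3 and PPL.

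Counted over the genes, shScr replicate 4 and shEN1 #2 replicate 1 were the 2 lowest libraries for 6 of 8, as they were for 19.2% of the 14333 genes tested. With library size alone as the scaling, tried after the values were seen, these were 5 of 8 (*DSP* left the group) and 12.9% of all genes. These libraries had the largest TMM factors, 1.06 and 1.07, against 0.962 to 1 in the others. The same pair with shEN1 #1 replicate 1 made up the 3 lowest libraries for 5 of 8 genes (*DSP*, *DSC2*, *JUP*, *PKP3* and *PPL*) and for 5.64% of all genes tested. By library size alone it was again 5 of 8, with *PKP2* in place of *DSC2*, and 4.23% of all genes. By that scaling these were also the 3 highest libraries for *PERP*, as for 5.43% of all genes. Relative to each gene's mean, the median of the 8 genes was -0.49 on the log2 scale in shScr replicate 4 and -0.52 in shEN1 #2 replicate 1, and it was 0.35 in both shEN1 #1 replicate 2 and shEN1 #2 replicate 2. Over the 8 genes, shScr replicate 4 and shEN1 #2 replicate 1 were the most alike of all pairs of libraries, with a root mean square log2 difference of 0.11, while the replicates of shEN1 #2 were the least alike, at 0.90. That first pair was also the most alike over all genes tested, at 0.40. In bulk RNA, fewer cells with desmosomes and less desmosomal RNA per cell cannot be told apart.

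The spread within arms was larger than that of a typical gene for 6 of the 8. The SD of log2 CPM within arms had a median of 0.40 over the 8 genes and of 0.28 over all genes tested. *PPL* had the widest SD, at 0.57, wider than that of 80.8% of genes tested, and *PERP* the narrowest, at 0.20, wider than that of 30.1%. *DSP* stood near the middle, at 49.8%.

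*JUP* and *PPL* were the most alike of the genes, with a root mean square difference of 0.086 in centred log2 CPM over 8 libraries, and 0.00698% of genes tested were nearer to *PPL* than *JUP* was. *PKP3* was nearest to *JUP* (0.092), and *DSG2* and *PKP2* were nearest to each other (0.14). For *PERP* the nearest was *DSP* at 0.39, and 66.1% of genes tested were nearer to it than that. By the same measure the 5 genes most like *DSP* among all tested were *TRABD* (0.054), *POLR3E* (0.057), *NEK6* (0.063), *ZFP36L2* (0.074) and *FOXO3* (0.075), and for *DSG3* none could be named because it had no counts. These distances describe 8 libraries and carry no test.

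**Figure D3:**
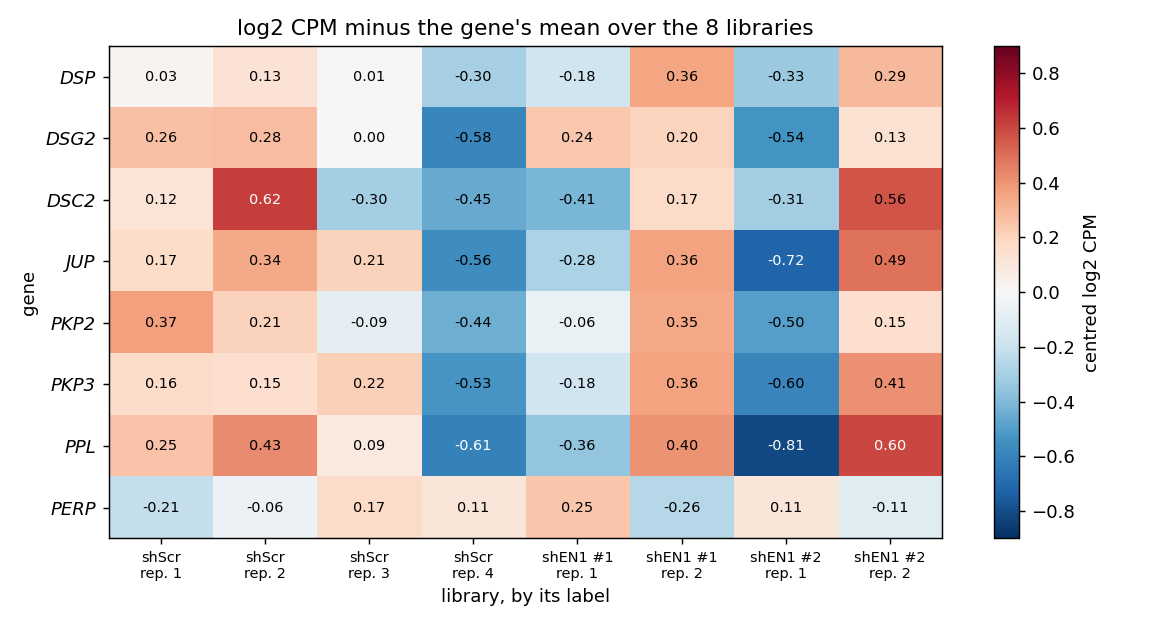
Order of the libraries for each desmosome gene. Columns are the 8 libraries by label, rows the 8 genes, and colour and figures give log2 CPM minus the gene's mean over the libraries; 7 rows are negative (blue) in shScr replicate 4 and shEN1 #2 replicate 1, and PERP is positive in both.

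No desmosome gene passed the test between shEN1 and shScr. Of the 8 tested, 0 were called at an adjusted p below 0.05 by edgeR's quasi-likelihood test. The background was the same, with 0% of 14333 genes called. An unadjusted p below 0.05 was found for 44 genes, none of them a desmosome gene. That is far fewer than this threshold passes by chance, so the absence of calls says little about the desmosome genes. DESeq2 called 2 genes, neither of them a desmosome gene. The log2 fold changes lay between -0.03 (*JUP*) and 0.09 (*DSP*), with SEs of 0.14 to 0.32, and every adjusted p was 1. Their median was -0.0014, beside -0.0028 over all genes tested. There were 4 genes higher and 4 lower in shEN1, a split that became 5 and 3 with DESeq2's size factors and 3 and 5 with library size alone. Single libraries moved it further: 7 were higher without shScr replicate 2 or without shEN1 #2 replicate 1, 2 were higher without shScr replicate 4 or without shEN1 #2 replicate 2, and 1 was higher without shEN1 #1 replicate 2. The median then ran from -0.14 to 0.16. By CPM, the arms overlapped for all 8, whereas 0.419% of genes tested had arms that did not overlap.

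The intervals, each for a single gene and unadjusted, show which differences fit the data. They do not show what the test could miss, since calls were adjusted over all 14333 genes tested. Among those genes, log2 fold changes ran from -3.66 to 3.13 with 0 called. For *PERP* the 95% confidence interval of the log2 fold change ran from -0.31 to 0.31, so a change of up to 1.24-fold fits inside it. For *DSP* it ran from -0.29 to 0.47, for *DSG2* from -0.47 to 0.50 and for *PKP2* from -0.49 to 0.44. It was wider for *JUP*, from -0.66 to 0.59, and for *DSC2*, from -0.64 to 0.64, and widest for *PPL*, from -0.74 to 0.70, which holds changes of up to 1.67-fold. Leaving out shScr replicate 4 and shEN1 #2 replicate 1 together left 0 genes called of the 8, with a median of 0.0018.

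The constructs taken singly gave the same count. Against shScr, shEN1 #1 called 0 of 8 genes (0% of all genes, 94 with an unadjusted p below 0.05). The largest differences were those of *DSG2*, at a log2 fold change of 0.20 (SE 0.26, adjusted p = 0.9999 by edgeR), and *DSC2*, at -0.15 (SE 0.37). The shEN1 #2 libraries called 0 of 8 against shScr (0% of all genes, 43 with an unadjusted p below 0.05), with *DSG2* at -0.19 (SE 0.26), *PKP2* at -0.18 (SE 0.26) and *DSC2* at 0.13 (SE 0.36). Both comparisons use the same shScr libraries, so they are given side by side only. The constructs compared directly called 0 of 8 (0% of all genes, 153 with an unadjusted p below 0.05). *DSG2* differed most, at -0.39 in shEN1 #2 against shEN1 #1, with an interval from -1.06 to 0.29 and an unadjusted p of 0.23 by edgeR's quasi-likelihood test (adjusted p = 0.9997). DESeq2 called 3, 0 and 0 genes of all those tested in these comparisons, and 0 of the 8. The medians over the 8 genes were 0.05, -0.03 and -0.08 in the 3 comparisons, and -0.0075, -0.0087 and 0.0016 over all genes tested. With 2 libraries a construct these medians rest on single libraries. That of shEN1 #1 against shScr was 0.29 without shEN1 #1 replicate 1 and -0.17 without its replicate 2. Without shEN1 #2 replicate 2, that of shEN1 #2 against shScr was -0.55, and without shEN1 #2 replicate 1 it was 0.33.

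**Figure D4:**
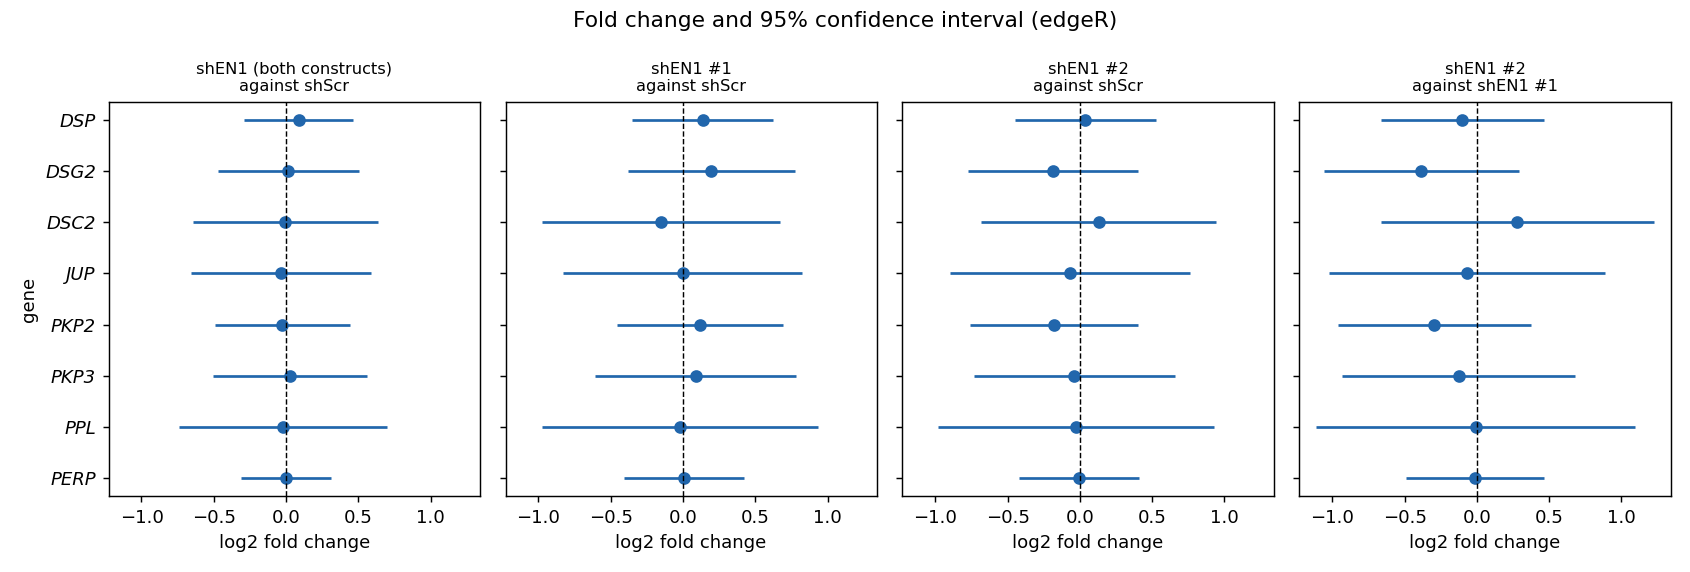
Log2 fold change of the 8 desmosome genes in 4 comparisons. Points are edgeR estimates and bars 95% confidence intervals; all bars cross 0 (dashed line), and the bars of PPL are the widest for the pooled constructs, from -0.74 to 0.70.

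Ratios between related genes overlapped between the arms. The ratio of *PKP3* to *PKP2* per length was 4.98, 5.54, 7.10 and 5.40 in the shScr libraries, 5.29 and 5.82 in shEN1 #1 and 5.37 and 6.87 in shEN1 #2. *PKP3* was thus at least 4.98 times as abundant as *PKP2* in each library, or 2.76 times with canonical transcript lengths. The mean was 5.76 ± 0.93 (SD, n = 4) in shScr and 5.84 ± 0.726 (SD, n = 4) in shEN1, and the log2 ratio differed by 0.03 (exact two-sided permutation test, p = 0.83, adjusted p = 0.943). The ratio of *JUP* to *CTNNB1*, its close relative beta-catenin, was 0.877, 0.952, 0.871 and 0.513 in shScr, 0.570 and 1.03 in shEN1 #1 and 0.456 and 1.17 in shEN1 #2. It was lowest in the same 3 libraries as *JUP* itself, and with canonical transcript lengths it was lower throughout, at 0.200 to 0.511. The mean was 0.803 ± 0.197 (SD, n = 4) in shScr and 0.806 ± 0.346 (SD, n = 4) in shEN1, and the log2 ratio differed by -0.06 (exact two-sided permutation test, p = 0.943, adjusted p = 0.943 over the 2 ratios that could be tested). The smallest p that 4 against 4 libraries allow is 0.0286. The ratios of *DSG3* to *DSG2* and of *DSC3* to *DSC2* could not be tested because the first gene of each had at most 2 counts in a library.

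A wider list of 36 genes around the desmosome gave 29 tested, of which 19 were higher and 10 lower in shEN1 and 0 were called. The split followed single libraries: without shScr replicate 4 it was 9 higher and 20 lower, and without shEN1 #2 replicate 2 it was 11 higher and 18 lower. Their median log2 fold change was 0.04. One set of the list joined other desmosomal genes with adherens junction genes and plaque partners. Of its 10 tested genes, 9 were higher, with a median of 0.06 and a highest value of 0.21. With library size alone as the scaling, 8 were higher. That split turned on 1 library as well, with 4 higher and 6 lower (median -0.0047) without shScr replicate 4. *EVPL*, the plakin envoplakin that pairs with *PPL*, was at 172 to 242 CPM in shScr and 154 to 292 CPM in shEN1, a log2 fold change of 0.08 (SE 0.20). *CTNNB1* had a narrow range, at 385 to 399 CPM in shScr and 362 to 433 CPM in shEN1 (log2 fold change -0.01, SE 0.10), while *CDH1*, the classical cadherin of adherens junctions, was at 230, 225, 178 and 124 CPM in shScr, 157 and 241 CPM in shEN1 #1 and 103 and 256 CPM in shEN1 #2. The 3 lowest libraries for *CDH1* were those of *JUP* and *PPL*, and its log2 fold change was 0.00 (SE 0.30). The squamous paralogs were not found: *DSG1*, *DSG4* and *DSC1* had 0 counts in all libraries and *PKP1* at most 6 in any.

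The 5 genes of shedding and turnover (*ADAM10*, *ADAM17*, *PRKCA*, *EGFR* and *SRC*) had log2 fold changes of -0.11 to 0.04. Of the 9 regulators tested, 5 were higher and 4 lower, against 8 and 1 without shScr replicate 2 and 3 and 6 without shEN1 #2 replicate 2. *ZEB1*, a repressor of epithelial junction genes, was at 10.1, 10.4, 11.0 and 20.2 CPM in shScr, at 22.3 and 10.3 CPM in shEN1 #1 and at 23.6 and 9.40 CPM in shEN1 #2. It was highest in the 3 libraries in which *JUP*, *PKP3* and *PPL* were lowest, a rank shared with 3.99% of genes tested, and its log2 fold change was 0.34 (SE 0.36, adjusted p = 1 by edgeR). *SNAI2*, which encodes another repressor of junction genes, had a different order. It was at 7.62, 6.85, 6.80 and 1.44 CPM in shScr, at 12.2 and 8.86 CPM in shEN1 #1 and at 1.63 and 8.11 CPM in shEN1 #2, so it was lowest in 2 of those 3 libraries and highest in the remaining one. *GRHL2* and *KLF5*, activators of epithelial genes, were at 71.8 to 97.4 CPM and 204 to 303 CPM, with log2 fold changes of -0.05 (SE 0.13) and -0.04 (SE 0.15). For both, the 3 lowest libraries were the same as for *JUP*, *PKP3* and *PPL*. That held for 7 of the 29 tested genes of the wider list and for 5.64% of all genes tested. *TP63*, the squamous master regulator, had 8 counts in shScr replicate 3 and 0 in every other library.

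The keratins that desmosomes anchor were those of simple epithelium. *KRT8* was at 6094 to 9573 CPM and *KRT18* at 3586 to 5628 CPM, each with a log2 fold change of 0.04 (SE 0.17). *KRT19*, the ductal keratin, was at 1091, 1456, 1037 and 400.3 CPM in shScr, at 831.5 and 1040.0 CPM in shEN1 #1 and at 321 and 1648 CPM in shEN1 #2. It was low in shScr replicate 4 and shEN1 #2 replicate 1 as most of the desmosome genes were, and its log2 fold change was -0.05 (SE 0.49). *KRT8* and *KRT18* were instead lowest in shScr replicate 3 and shEN1 #1 replicate 1. Of the 29 tested genes of the wider list, 13 had shScr replicate 4 and shEN1 #2 replicate 1 as the 2 lowest libraries (19.2% of all genes tested). For 2, *KAZN* and *GRHL1*, that pair was the 2 highest (18.9% of all genes tested). *KRT5* reached at most 44 counts in a library, and the 6 stratified squamous markers summed to at most 1.49 CPM, with *KRT6A*, *IVL* and *LORICRIN* at 0. None of these genes was called, and their part in the order of the libraries was not tested.

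**Figure D5:**
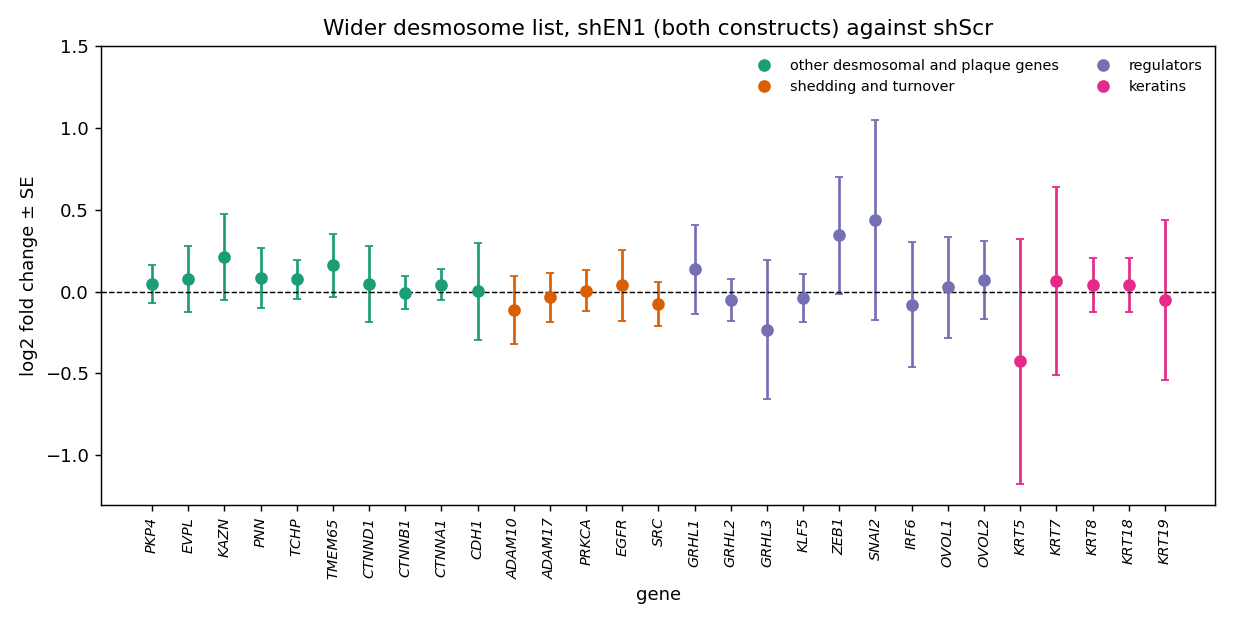
Log2 fold change of the 29 tested genes of the wider list in shEN1 (both constructs) against shScr. Points are edgeR estimates coloured by set and bars SE; values run from -0.43 (KRT5) to 0.44 (SNAI2), and none was called.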

How the data were processed

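RNA-seq of SUIT2 was analysed in 8 libraries (4 shScr, 2 shEN1 #1 and 2 shEN1 #2), grouped by their labels. In shEN1 titles the construct number was taken to come first and the replicate number second. The values deposited by the authors are read counts without normalization, in whole numbers, from HISAT2 alignments to hg19 that were counted with featureCounts. The build mm9, which the submitters' processing notes name, is the one used for the murine samples. The annotation and strand setting are not given in the sources used here.

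Genes were filtered (filterByExpr, minimum count 10), scaled by TMM and tested with edgeR 4.0.16 (glmQLFit, robust, and glmQLFTest) in R 4.3.3, with Benjamini-Hochberg adjustment over 14333 of 25702 genes. The main comparison pooled the constructs, and a fit with 3 groups compared them singly. CPM uses TMM-scaled library sizes. RPKM divides CPM by merged exon length (GENCODE lifted to GRCh37). Symbols and promoters came from RefSeq tables (GRCh38.p14), and windows were placed on GRCh37 by exact match. Ratios were tested by exact permutation. DESeq2 1.42.0, other scalings, no filter, a replicate block (on the replicate numbers found in both arms) and left-out libraries were alternatives.

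The desmosome genes, the wider list and the markers were chosen with earlier results of these data known, so no list was tested as a set. The rule for named genes was all 10 desmosome genes, *EN1*, 13 genes of the wider list and the 5 genes nearest to *DSP*. Other genes of the wider list (the turnover genes, *SNAI2*, *DSG4*, *DSC1*, *KAZN* and *GRHL1*) were named after their values were seen.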

Additional observations from a re-analysis of the deposited data

Results flagged for a closer look

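Values set apart within an arm were looked for in 42 groups of 4 libraries, and chance alone flags about 2.1 of them. These groups did not cover every gene of the wider list. There were 3 in the groups examined. *PKP3* was at 144 CPM in shScr replicate 4, while the other shScr libraries lay at 232 to 242 CPM. *ZEB1* was at 20.2 CPM in shScr replicate 4 and at 10.1 to 11.0 CPM in the other shScr libraries. *CTNNB1* was at 385 CPM in shScr replicate 1 and at 397 to 399 CPM in the others, a gap that is small beside its level. Outside the groups examined, other values also stood apart. In shScr replicate 4, *SNAI2* was at 1.44 CPM (6.80 to 7.62 in the other shScr libraries) and *ADAM17* at 31.9 CPM (45.05 to 46.52). *GRHL1* was at 12.9 CPM in shEN1 #2 replicate 1 and at 6.89 to 7.80 CPM in the other shEN1 libraries.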

How the results depend on the processing

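No desmosome gene was called in any of the alternatives to the 4 comparisons, and the lowest adjusted p was 0.434 (*DSP*, edgeR, without the 4 libraries shScr 3, shScr 4, shEN1 #1 1 and shEN1 #2 1, where 2 of the 8 and 1512 of 14273 genes had an unadjusted p below 0.05). All log2 fold changes of the pooled comparison lay near 0 and several changed sign. *DSC2* was 0.000247 with DESeq2's size factors, 0.000266 with DESeq2 and 0.00329 without a filter, and *PERP* was -0.00318 with library size alone. Without shScr 4 and shEN1 #2 1, *PPL* was 0.00529 and *PERP* -0.0016. Without shScr 3 and shEN1 #1 1, *DSG2* was -0.067, *DSC2* 0.02, *JUP* 0.104, *PPL* 0.0944, *PERP* -0.0311 and the log2 ratio of *JUP* to *CTNNB1* differed by 0.119. Without all 4 libraries *DSG2* was -0.102, *JUP* 0.169, *PPL* 0.161, *PERP* -0.0508 and that ratio 0.264. Whether replicate numbers pair the libraries is not known. The correlations of same-numbered libraries ran from -0.381 to 0.319. They cannot decide it, since values were centred on arm means and libraries with different numbers were not correlated. The replicate block was fitted to replicates 1 and 2 only, so shScr replicates 3 and 4 were also left out. In that fit 7 of the 8 genes were lower, with *PPL* at -0.393, *DSC2* at -0.364, *JUP* at -0.297 and *PKP2* at -0.305. Of these 7, *DSP* at -0.048, *DSG2* at -0.234 and *PKP3* at -0.168 had a changed sign. The median was -0.266, and 0 of the 8 were called. Without shScr replicate 4 and with no block, 6 of the 8 were lower. The effect of the block was not separated from that of the left-out libraries. The cause of these changes was not tested.

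Leaving out 1 library at a time, log2 fold changes ran from -0.0264 to 0.196 for *DSP*, -0.141 to 0.165 for *DSG2*, -0.222 to 0.246 for *DSC2*, -0.222 to 0.144 for *JUP*, -0.155 to 0.11 for *PKP2*, -0.12 to 0.188 for *PKP3*, -0.257 to 0.175 for *PPL* and -0.0885 to 0.0819 for *PERP*. The medians ran from -0.141 to 0.155 for the pooled constructs, from -0.165 to 0.293 for shEN1 #1 against shScr, from -0.554 to 0.333 for shEN1 #2 against shScr and from -0.687 to 0.219 for shEN1 #2 against shEN1 #1, where a construct left with 1 library is assumed to vary like the other groups. The log2 ratio of *PKP3* to *PKP2* differed by -0.0555 to 0.131 and that of *JUP* to *CTNNB1* by -0.278 to 0.174. DESeq2 called 2 genes in the pooled comparison where edgeR called 0, and neither belongs to the lists. At these depths *DSG3* was not detectable and *DSC3* was at or under the floor of 3 counts in every library.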
